A study of Homo sapiens with 4 samples.

Results

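Long intergenic non-coding transcripts, named LINC and a 5-digit number in the gene nomenclature, were described in MDA-MB-231 cells that differed in EGFP and in extravasation. The transcripts were chosen by name and by abundance: a row had to have such a name and at least 100 counts summed over the 4 libraries, with no use of the difference between the groups. They numbered 82 of the 61471 gene names in the tables and of the 2263 names of this form. MDA-MB-231 is an established human cell line from a triple-negative breast cancer, a tumour type without estrogen receptor, progesterone receptor or HER2 amplification. All 4 libraries came from cells labelled genotype WT and transfected with H2B-EGFP and CMV-RFP. Of these, 2 libraries were labelled EGFP positive, with the status no increased extravasation, and 2 were labelled EGFP negative, with the status increased extravasation. The EGFP state and the extravasation status change together in every library, so they cannot be told apart. Separate cultures are not named in the labels, and the p-values rest on variation among the 4 libraries alone, part or all of which may be technical.

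Long non-coding RNAs are transcribed by RNA polymerase II, are usually spliced and polyadenylated, and carry no long open reading frame. LINC is the name given to those that lie between coding genes and have no better-known function. Some act in cis on a neighbouring gene, through the transcript or through the act of transcription. Others work elsewhere in the nucleus or in the cytoplasm, and for most no function is known. As a class they are less abundant and more restricted to particular cell types than messenger RNAs.

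The libraries held between 11445076 and 12635576 counts, of which the LINC transcripts took 0.0741 to 0.0777% in each. A floor of 3 counts corresponded to 0.241 to 0.260 CPM, the count scaled to the library's normalised total, and covers counting error only. As a check of the labels, H2BC11, which encodes an H2B histone, stood at 7733 and 7352 counts in EGFP positive cells, against 88 and 64 in EGFP negative cells. How much of that signal came from the H2B-EGFP construct was not tested. VIM, CD44, ANXA1, CAV1 and AXL, markers of mesenchymal breast cancer lines, each had between 6509 and 74960 counts per library, while SPARC had 2 to 5. ESR1, PGR, FOXA1 and CDH1, markers of luminal breast cells, had 0 to 3 counts and GATA3 109 to 130. The fibroblast gene DCN, the endothelial gene CDH5 and the leukocyte gene CD3E were at 0 in all 4 libraries. LUM had 1 to 4 counts, VWF 0 to 3, PTPRC 2 to 6 and CD14 2 to 10, while the collagen gene COL1A1 had 162 to 279. The endothelial adhesion gene PECAM1 had 9 counts in each EGFP positive library, against 39 and 43, and passed the test described below as higher. The mesenchymal receptor gene PDGFRB also passed as higher, but not without EGFP negative library 1 (edgeR adjusted p = 0.0631) or EGFP positive library 2 (0.337). Summed over 3 endothelial markers the level was 0.955 to 1.04 CPM in EGFP positive and 3.21 to 3.69 CPM in EGFP negative libraries, with only PECAM1 of the 3 tested. Over 4 fibroblast markers it was 23.2 to 27.0 and 18.7 to 28.4 CPM. The part of such markers in the results below was not tested.

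The members were a small, abundant share of the LINC names. Of the 2263 names, 1480 had no count in any library and 701 had 1 to 99 counts in all. The 82 transcripts held 82.5% of all LINC counts. Their own summed counts ran from 102 to 2775 with a median of 246.5. 35 of them had under 200 counts, and the 10 most abundant held 42.6% of the counts of all 82. At the edge of the threshold, LINC02331, LINC03072 and LINC03009 lay just inside with 102, 103 and 105 counts. LINC01411, LINC03015 and LINC01521 lay just outside with 99, 94 and 93.

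The word intergenic held for most of them. The span of 71 members overlapped no protein-coding gene, and that of 11 did, in 4 cases on the same strand. 44 members shared at least 1 exon base with another gene in the tables, 38 shared none, and only LINC03052, LINC02637 and LINC01089 shared over 50%. In GENCODE 29, 60 were annotated as lincRNA, 9 as processed transcript and 1, LINC02693, as protein-coding, while 80 had a RefSeq entry and all 80 were lncRNA there. The counting ignored strand, and over shared bases a member cannot be told apart from a gene on the other strand.

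Compared per kilobase of exon, which allows levels of different genes to be set side by side, the median member had 1.25 CPM per kb and the range was 0.162 to 12.2. The highest was LINC01709 at 12.2 CPM per kb, with 376 and 305 counts in EGFP positive cells, against 385 and 378 in EGFP negative cells. LINC00370 followed at 9.91 CPM per kb, with 682 and 706 against 727 and 660 counts. LINC00857, LINC01116 and LINC01605 lay close together, at 7.20, 7.06 and 7.03 CPM per kb, and LINC03033 at 5.997. Of these 6 abundant transcripts, LINC01605 and LINC03033 passed the test below and 4 did not. The log2 fold change of EGFP negative over EGFP positive was -0.065 ± 0.097 (SE, n = 2 libraries per group) for LINC00370 and 0.03 ± 0.14 for LINC00857. For LINC01709 it was 0.10 ± 0.13, and the direction turned to -0.039 without EGFP positive library 2. LINC01116 rested just outside the threshold: its 283 and 310 counts stood against 403 and 385, a log2 fold change of 0.35 ± 0.12 with an edgeR adjusted p of 0.057.

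Some members carry sequence that also occurs elsewhere, which limits how surely a read belongs to them. Of 79 members with a GENCODE 29 transcript, 26 matched a transcript of another gene over 200 bases or more at 95% identity, and 21 matched over 20% or more of a transcript. One such pair involves NORAD, a long and abundant non-coding RNA that binds Pumilio proteins. LINC02211 matched NORAD over 54.4% of a transcript. Its longest alignment ran in reverse orientation over 1036 aligned bases, with a transcript of 2816 bases, at 98.17% identity. Its neighbour LINC02228 on the other strand matched NORAD over 39.33% of a transcript. The longest alignment of LINC02228 ran in forward orientation over 526 aligned bases, with a transcript of 2788 bases, at 92.39% identity, under the 95% used for matches. A stretch of 120 aligned bases from GENCODE 29 transcripts is shown for LINC02211 and for the reverse complement of NORAD, because few bases separate them there. It is the first such stretch that has no gap and holds a mismatch, and capitals mark the 2 mismatched bases.
LINC02211: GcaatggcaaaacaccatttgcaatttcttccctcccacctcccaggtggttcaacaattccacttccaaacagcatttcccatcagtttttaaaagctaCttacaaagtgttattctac
NORAD reverse complement: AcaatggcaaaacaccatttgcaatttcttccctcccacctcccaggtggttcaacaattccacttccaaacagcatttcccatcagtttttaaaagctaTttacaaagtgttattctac
LINC02211 had 116, 124, 127 and 122 counts in EGFP positive libraries 1 and 2 and EGFP negative libraries 1 and 2, in that order. NORAD had 3512, 3848, 4168 and 4136. Neither passed the test, with log2 fold changes of -0.01 ± 0.17 and 0.11 ± 0.08. Whether counts of LINC02211 came from NORAD was not tested.

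Between the groups, 6 LINC transcripts were higher in EGFP negative cells, 10 were lower and 66 did not pass. Those that rose included LINC02970, LINC00205 and LINC00511, and those that fell included LINC01293, LINC02331, LINC00702 and LINC03033. The test was edgeR's quasi-likelihood test on 16413 genes with Benjamini-Hochberg adjustment at 0.05, and all 82 members were among the genes tested. The share of members that passed was 19.5%, against 18.9% of all genes tested, 17.2% of the 9751 genes with a summed count in the members' range and 22.9% of protein-coding genes. By direction, 7.32% of members were higher against 9.4% of all genes, and 12.2% were lower against 9.46%, and in the members' count range 8.78% of genes were higher and 8.42% lower. The members' share of calls was therefore near the background. In bulk RNA, fewer cells that make a transcript and less of it per cell cannot be told apart. Without EGFP positive library 2 the test called 3 higher and 6 lower, without EGFP positive library 1 it called 4 and 6, and without either EGFP negative library it called 10 and 12.

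**Figure D1:**
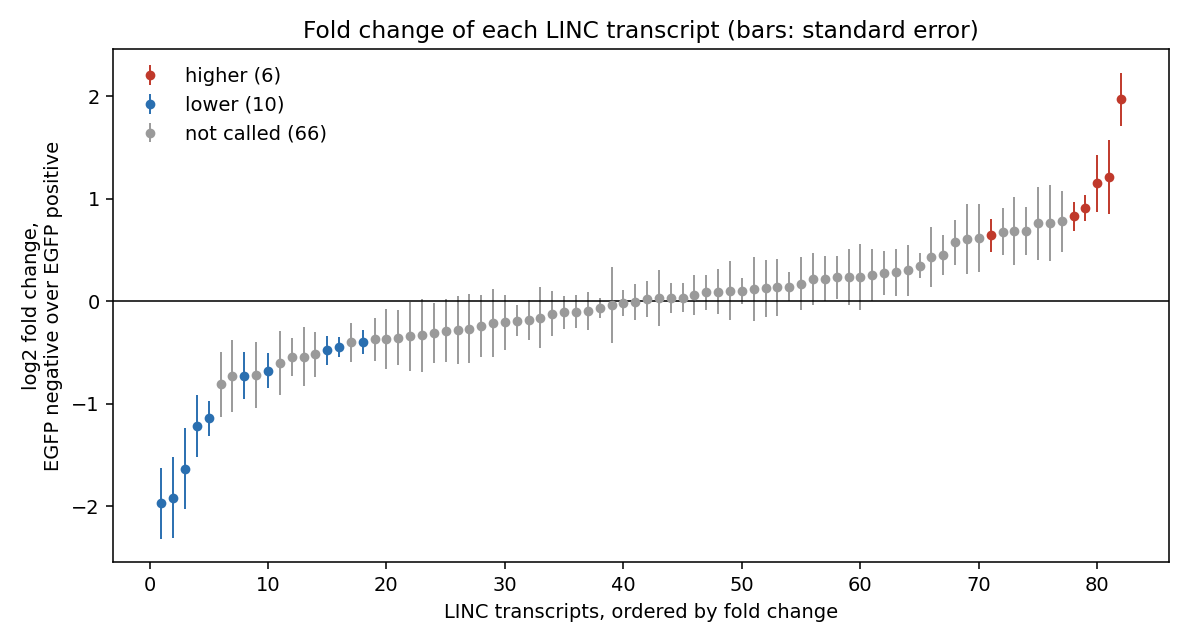
Log2 fold change (EGFP negative over EGFP positive, y axis) of each of the 82 LINC transcripts, ordered by fold change along the x axis. Points are edgeR estimates from 2 libraries per group, bars are 1 standard error, and colours mark the 6 higher, 10 lower and 66 that did not pass. The transcripts spread on both sides of 0, from -1.97 to 1.97.

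As a group the members were centred on 0. Their median log2 fold change was 0.0049, beside -0.0028 over all genes tested, with 41 above and 41 below 0. The size of the change was larger: the median absolute log2 fold change was 0.32 in members and 0.22 in all genes, and also 0.22 in the genes of the same count range. That range, 102 to 2775 counts, bounds the members but does not match their depths, whose median was 246.5. Fold changes spread more widely at low counts, and the part of depth in this difference was not tested. Members' standard errors ran from 0.0965 to 0.395 with a median of 0.26. The values of both libraries of one group lay outside those of the other for 52 members, or 63.4%, against 57.4% of all genes tested. 8 members passed with a change of at least 2-fold, 3 higher and 5 lower, a share to be read beside 4.25% of all genes and with the same limit of depth. Among the 66 that did not pass, log2 fold changes ran from -0.81 to 0.78. In simulated data with the same depths, the test found 27 of 51 genes in the members' count range that changed 1.5-fold. It found 47 of 51 that changed 2-fold and 55 of 55 that changed 4-fold. Changes of 1.5-fold were thus often missed in that range. Those data had a dispersion common to both groups, and detection at the members' own depths was not tested.

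Among the 6 LINC transcripts that were higher in EGFP negative cells, LINC02970 had the largest change. It lies on the minus strand of chromosome 20 (chr20:62601126-62603355; all coordinates are GRCh38) and had 22 and 24 counts in EGFP positive cells, against 100 and 89 in EGFP negative cells. The lowest EGFP negative library stood well above the highest EGFP positive one. The mean rose from 1.99 ± 0.13 to 7.83 ± 0.29 CPM (SD, n = 2), a log2 fold change of 1.97 ± 0.26 (SE) with an edgeR adjusted p of 0.000107.

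LINC00205 starts next to the start of POFUT2 on chromosome 21 (chr21:45288037-45297806). It had 235 and 203 counts in EGFP positive and 433 and 423 in EGFP negative libraries, with no overlap. The log2 fold change was 0.90 ± 0.13 with an edgeR adjusted p of 0.000193. LINC00511, a long transcript often studied in breast cancer, spans chr17:72221072-72640472 on the minus strand. Its counts were 173 and 150 in EGFP positive and 306 and 292 in EGFP negative libraries, a log2 fold change of 0.83 ± 0.14 with an edgeR adjusted p of 0.000925. These 3 transcripts passed in all 11 alternative fits.

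The other 3 that were higher depended on the libraries used, and LINC03072 and LINC00467 also did not pass with DESeq2. LINC01588 (chr14:49927571-50105102) had 53 and 29 counts against 89 and 101, a log2 fold change of 1.15 ± 0.28 (edgeR adjusted p = 0.0095). Its EGFP positive libraries differed from each other, and without EGFP positive library 2 the log2 fold change was 0.78 (adjusted p = 0.138). LINC03072 (chr7:128524016-128531069) had 17 and 13 counts against 40 and 33, the second lowest summed count among members, and a log2 fold change of 1.21 ± 0.36 (edgeR adjusted p = 0.0296). LINC00467 (chr1:211382736-211435333) had 110 and 117 counts against 196 and 174, a log2 fold change of 0.64 ± 0.16 (edgeR adjusted p = 0.0126). Both missed the threshold without EGFP positive library 1, at adjusted p = 0.0897 and 0.137, and without EGFP positive library 2, at 0.249 and 0.0729.

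Among the 10 transcripts that were lower in EGFP negative cells, 3 fell by more than 3-fold and were scarce in those cells. LINC01293 (chr2:74940258-74942670) had 54 and 48 counts in EGFP positive and 17 and 10 in EGFP negative libraries, a log2 fold change of -1.97 ± 0.35 (edgeR adjusted p = 0.00116). LINC02331 (chr14:53685139-53850882) had 41 and 39 against 15 and 7, a log2 fold change of -1.92 ± 0.40 (edgeR adjusted p = 0.00357). LINC00702 (chr10:4201141-4243912) had 48 and 48 against 9 and 23, a log2 fold change of -1.63 ± 0.39 (edgeR adjusted p = 0.0094). In each, the EGFP positive libraries were alike and the EGFP negative ones were low. The EGFP negative libraries were more spread in CPM for LINC02331 and LINC00702, while for LINC01293 the SD was 0.36 in both groups.

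LINC03033 (chr14:61570405-61658696) was the most abundant of the transcripts that fell by more than 2-fold. It had 269 and 249 counts in EGFP positive and 106 and 138 in EGFP negative libraries, and its mean went from 22.4 ± 1.17 to 10.2 ± 2.34 CPM (SD, n = 2), a log2 fold change of -1.14 ± 0.17 (edgeR adjusted p = 0.000309). It matched PARP15 over 59.09% of a transcript at 95% identity and shared 19.4% of its exon bases with ENSG00000258989 and LINC01303. ENSG00000258989 had no counts in any library, and LINC01303 had 10, 27, 15 and 12. LINC00452 (chr13:113888306-113923512) had 60 and 47 counts against 26 and 22, a log2 fold change of -1.22 ± 0.30 (edgeR adjusted p = 0.0119), which missed the threshold without EGFP positive library 1 (adjusted p = 0.149). LINC00452 also did not pass with DESeq2, while LINC01293, LINC02331, LINC00702 and LINC03033 passed in all 11 alternative fits.

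The remaining 5 fell by less than 2-fold, and each missed the threshold in at least 1 fit that left out an EGFP positive library. LINC01605, LINC00472 and LINC00665 also did not pass with DESeq2, or in edgeR without the filter on counts. LINC02693 (chr17:21428263-21574492), the second most abundant member by counts, had 808 and 751 against 625 and 573, a log2 fold change of -0.44 ± 0.10 (edgeR adjusted p = 0.0057; 0.144 without EGFP positive library 1). LINC00973 (chr3:98901046-99316255) had 280 and 327 against 165 and 230, a log2 fold change of -0.68 ± 0.17 (edgeR adjusted p = 0.0136; 0.0884 without EGFP positive library 2). LINC01605 had 258 and 309 against 220 and 205, a log2 fold change of -0.48 ± 0.14 (edgeR adjusted p = 0.0285; 0.419 without EGFP positive library 2). LINC00472 (chr6:71221457-71420745), which has been studied in breast tumours, had 443 and 414 against 334 and 346, a log2 fold change of -0.40 ± 0.12 (edgeR adjusted p = 0.0288). LINC00665 (chr19:36259540-36331761), reported to encode a micropeptide in triple-negative breast cancer cells, had 100 and 76 against 57 and 54, a log2 fold change of -0.73 ± 0.23 (edgeR adjusted p = 0.0417). The last 2 missed the threshold without EGFP positive library 1, at adjusted p = 0.289 and 0.438, and without EGFP positive library 2, at 0.137 and 0.055. LINC00665 matched LINC01535 over 55.76% of a transcript, and LINC02693 matched AC069061.2 over 26.22%.

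**Figure D2:**
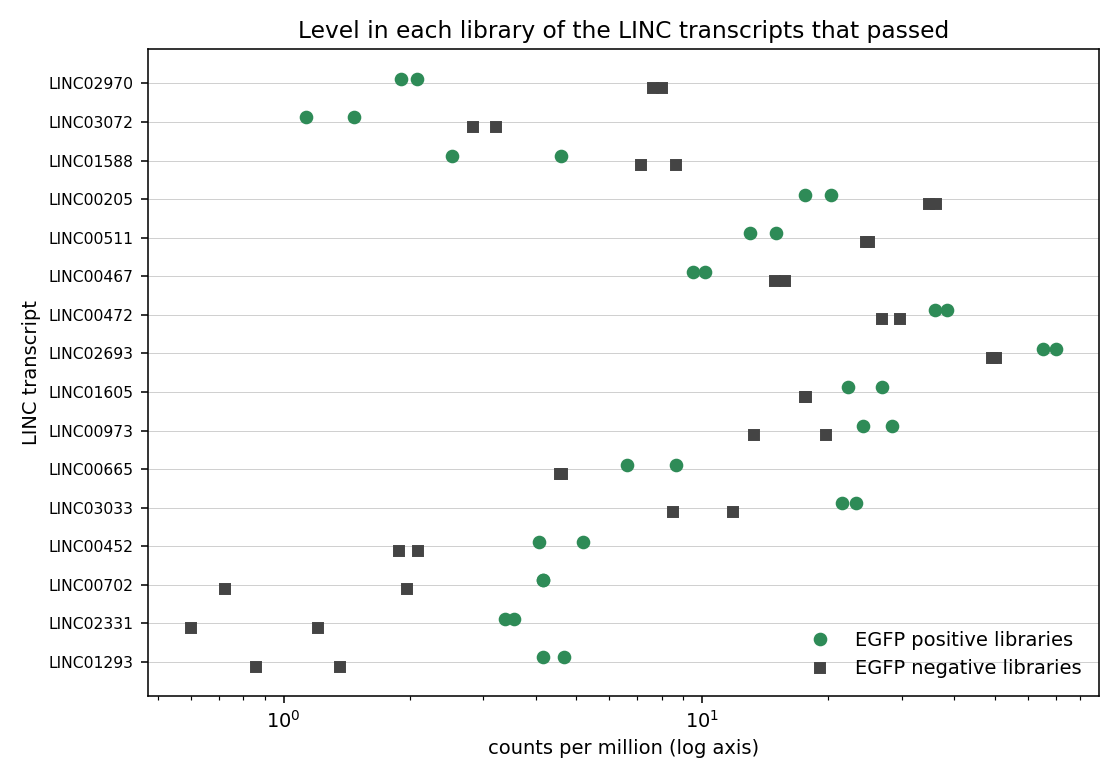
CPM (log x axis) in each of the 4 libraries for the 16 LINC transcripts that passed, 1 row per transcript. Circles are the 2 EGFP positive and squares the 2 EGFP negative libraries, with no error bars. In no row do the groups overlap; LINC02970 has the widest gap among those higher in EGFP negative cells.

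Promoter sequences are shown for 4 members that passed, because the starts of the changed transcripts differ widely in CpG content. They are 300 bases each, from 250 before to 50 after the RefSeq start (GRCh38.p14), and capitals mark every CG. LINC02970 (chr20:62603392-62603691, minus strand) has 6 CG and LINC00511 (chr17:72640423-72640722, minus strand) has 35, and both were higher. LINC00702 (chr10:4243863-4244162, minus strand) has 0 and LINC00472 (chr6:71420696-71420995, minus strand) has 31, and both were lower.
LINC02970: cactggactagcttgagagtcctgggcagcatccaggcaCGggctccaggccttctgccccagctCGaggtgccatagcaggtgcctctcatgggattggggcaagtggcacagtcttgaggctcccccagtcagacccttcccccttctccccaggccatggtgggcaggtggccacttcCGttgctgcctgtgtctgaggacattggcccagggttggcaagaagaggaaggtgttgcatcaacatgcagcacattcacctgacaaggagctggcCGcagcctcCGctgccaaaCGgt
LINC00511: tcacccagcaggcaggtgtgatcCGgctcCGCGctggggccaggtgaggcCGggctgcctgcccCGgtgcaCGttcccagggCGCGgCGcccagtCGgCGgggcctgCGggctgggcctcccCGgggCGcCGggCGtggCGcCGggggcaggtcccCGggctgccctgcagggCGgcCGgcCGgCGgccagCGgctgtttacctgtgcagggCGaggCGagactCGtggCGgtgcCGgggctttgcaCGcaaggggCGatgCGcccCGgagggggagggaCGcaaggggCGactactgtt
LINC00702: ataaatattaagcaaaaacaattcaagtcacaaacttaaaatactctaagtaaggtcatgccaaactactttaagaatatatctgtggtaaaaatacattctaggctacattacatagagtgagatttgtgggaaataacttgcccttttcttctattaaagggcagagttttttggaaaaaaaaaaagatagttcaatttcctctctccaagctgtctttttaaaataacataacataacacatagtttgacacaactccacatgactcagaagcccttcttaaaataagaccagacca
LINC00472: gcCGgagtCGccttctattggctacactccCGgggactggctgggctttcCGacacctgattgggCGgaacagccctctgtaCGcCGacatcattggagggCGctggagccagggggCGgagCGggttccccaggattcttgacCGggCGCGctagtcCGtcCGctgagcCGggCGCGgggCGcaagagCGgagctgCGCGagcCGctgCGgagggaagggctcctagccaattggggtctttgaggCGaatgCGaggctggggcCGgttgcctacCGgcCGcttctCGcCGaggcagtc
Transcripts with CpG-rich and CpG-poor starts thus stood on both sides of the comparison. A promoter entry was found for 62 of the 82 members. By a GC content above 50% and an observed to expected CG ratio above 0.6, 45.2% of the 62 were CpG-rich, against 46.8% of 27305 genes with an entry. The letters TGANTCA, searched on both strands, occurred in 7 of the 62 members' promoters (11.3%) and in 7.76% of all promoters. GGAATG occurred in 11.3% of the members' promoters and in 14.0% of all, and TATAAA in 9.68% of the members' and in 3264 of the 27305. Only 49 of the 62 entries start within 1 kb of the member's start in the tables. Of these 49, 53.1% were CpG-rich, 8.16% held TGANTCA, 10.2% GGAATG and 10.2% TATAAA. None of the 3 motifs contains another. These matches describe letters in a window and are not binding sites. LINC00702 and LINC00973 held TGANTCA, although the LINC00973 entry starts 13520 bases from the start in the tables.

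Coding genes near the members were examined next. The nearest coding gene lay a median of 16692.5 bases away. It was within 5 kb for 26 members, within 50 kb for 57 and beyond 250 kb for 11. The 82 members had 79 distinct nearest coding genes, of which 63 were tested, 8 were higher and 6 were lower. That is 22.2%, against 22.9% of all coding genes. Without EGFP positive library 1 there were 4 higher and 3 lower, and without EGFP positive library 2 there were 5 and 4. Without EGFP negative library 1 there were 10 higher and 10 lower.

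Of the 65 pairs in which both genes were tested, 14 had a member that passed and 14 had a coding gene that passed. Both passed in 4 pairs, always in the same direction, and in 0 pairs in opposite directions. Among 8533 pairs of a coding gene with its nearest other coding gene, 1908 first genes passed, and the nearest gene passed in the same direction for 23.7% and in the opposite direction for 5.4%. Over the 65 pairs the signs were the same in 43 (66.2%), against 58.1% of the coding pairs. Pearson's r of the log2 fold changes was 0.108 and Spearman's rho 0.294 over the LINC pairs, and r was 0.165 without the 2 most extreme pairs and 0.184 over the coding pairs. These are descriptions across genes that share libraries. Without EGFP positive library 1, or without library 2, 2 of the 4 pairs passed; without EGFP negative library 1, 8 passed in the same direction and 1 in opposite directions.

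**Figure D3:**
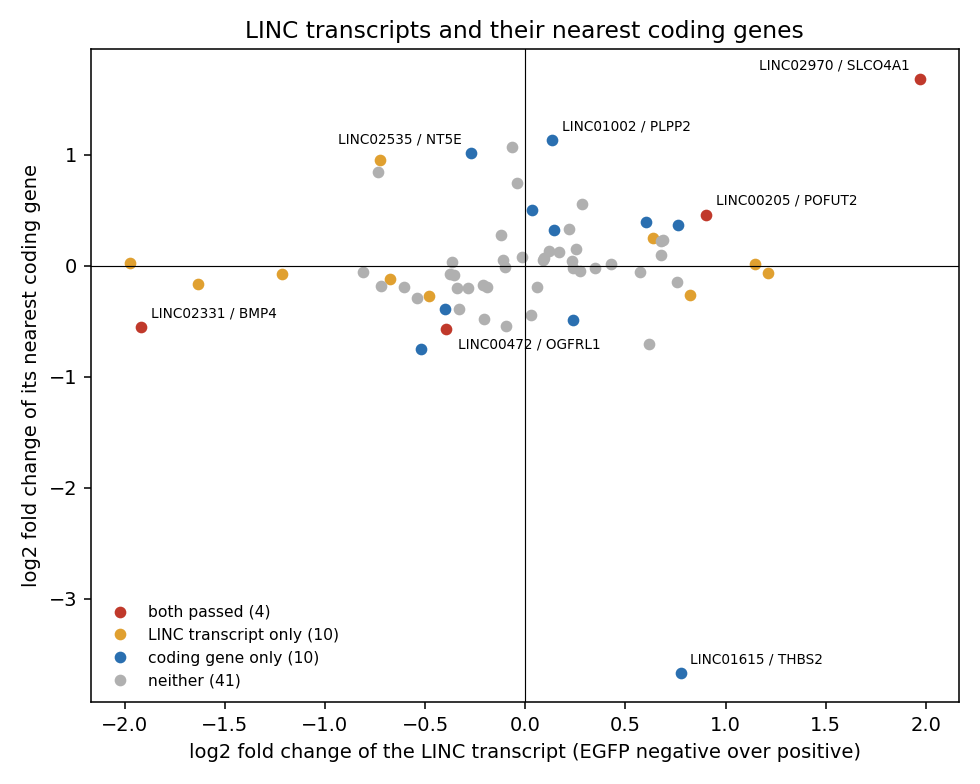
Log2 fold change (EGFP negative over EGFP positive) of each LINC transcript (x axis) and of its nearest coding gene (y axis) for the 65 pairs in which both were tested, without error bars. Colours mark pairs in which both passed (4), the LINC transcript only (10), the coding gene only (10) or neither (41). LINC02970 and SLCO4A1 lie together at the upper right, and LINC01615 and THBS2 lie apart at the lower right.

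The pair with the largest joint change was LINC02970 and SLCO4A1, which encodes an organic anion transporter and lies 39147 bases away on the opposite strand. SLCO4A1 had 69.0 and 74.2 CPM in EGFP positive and 242 and 218 CPM in EGFP negative libraries. Both genes therefore rose with no overlap of the groups, SLCO4A1 by a log2 fold change of 1.68 ± 0.09 (edgeR adjusted p = 2.11e-08). Of 7 coding genes tested within 250 kb of LINC02970, a window added after seeing the data, 4 were higher and 0 lower, where 11.5% of all coding genes were higher and 11.4% lower. They were SLCO4A1, LAMA5, which encodes a laminin chain of basement membranes (log2 fold change 1.14 ± 0.11), OGFR (0.60 ± 0.10) and MRGBP (0.32 ± 0.09). MRGBP missed the threshold without EGFP positive library 1 (edgeR adjusted p = 0.156) and without library 2 (0.385).

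LINC00205 and POFUT2, which encodes an enzyme that adds fucose to thrombospondin repeats, run head to head with 138 bases between their spans. The bases between them are shown because both genes of this pair were higher; the interval is chr21:45287899-45288036, read on the plus strand from the RefSeq assembly GRCh38.p14, and capitals mark its 18 CG.
LINC00205-POFUT2 interval: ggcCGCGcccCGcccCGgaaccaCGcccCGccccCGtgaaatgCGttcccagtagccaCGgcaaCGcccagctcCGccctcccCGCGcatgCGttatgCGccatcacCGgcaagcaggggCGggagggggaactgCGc
POFUT2 had 29.7 and 27.2 CPM in EGFP positive and 39.8 and 38.4 CPM in EGFP negative libraries, a log2 fold change of 0.46 ± 0.11 (edgeR adjusted p = 0.0113). It missed the threshold without EGFP positive library 1 (adjusted p = 0.061) and without library 2 (0.206). COL18A1, which encodes the collagen that endostatin is cut from, lies 107358 bases from LINC00205 and was also higher (1.15 ± 0.10). Other members also started within 5 kb of the start of a coding gene on the opposite strand. They were LINC00857 with ANXA11, LINC00938 with ARID2, LINC01089 with SETD1B, LINC01547 with SLX9 and, with overlapping spans, LINC00973 with DCBLD2 and LINC01232 with TM9SF2. Of these, LINC00973 passed while DCBLD2 did not (-0.12 ± 0.08), and ANXA11 passed as higher (0.51 ± 0.08) while LINC00857 did not.

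On the lower side, LINC02331 paired with BMP4, a ligand of the BMP pathway, 98853 bases away. BMP4 had 213 and 206 CPM in EGFP positive and 142 and 142 CPM in EGFP negative libraries, with a log2 fold change of -0.56 ± 0.08 (edgeR adjusted p = 0.000254). LINC00472 spans OGFRL1 on the opposite strand and shares 1.86% of its exon bases with OGFRL1 and MIR30C2. OGFRL1 had 200 and 211 CPM in EGFP positive and 133 and 143 CPM in EGFP negative libraries, with a log2 fold change of -0.57 ± 0.08 (edgeR adjusted p = 0.000281). Both genes of this locus were lower, but the counting did not separate the strands there, and the call of LINC00472 was lost without either EGFP positive library.

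Several pairs did not move together. LINC01615 had 25 and 28 counts in EGFP positive and 48 and 47 in EGFP negative libraries (log2 fold change 0.78 ± 0.30, edgeR adjusted p = 0.0855). THBS2, which encodes the matrix protein thrombospondin 2 and lies 53237 bases away, had 407 and 448 counts against 36 and 34 (-3.67 ± 0.17). LINC02535 had 26, 33, 24 and 27 counts, while NT5E, which encodes the ecto-nucleotidase CD73 and lies 59397 bases away, was higher (1.01 ± 0.08). LINC01002 had 38, 43, 51 and 42 counts beside PLPP2, a lipid phosphatase gene that was higher (1.13 ± 0.13). The difference between the fold changes within a pair was not tested.

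LINC00261 lies 2355 bases from FOXA2, a pioneer transcription factor gene of endoderm, and is known for acting on FOXA2 there. LINC00261 had 264 and 290 counts in EGFP positive and 293 and 280 in EGFP negative libraries, with overlapping groups and a log2 fold change of -0.01 ± 0.13. FOXA2 had 636 and 684 against 844 and 621 (0.08 ± 0.12). Both genes were thus well detected in every library and neither passed.

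Coding genes nearest to the other strongly changed members mostly did not pass. POLE4, a DNA polymerase epsilon subunit gene near LINC01293, had a log2 fold change of 0.02 ± 0.10. KLF6, a transcription factor gene 415859 bases from LINC00702, had -0.17 ± 0.08, GAS6, the gene of an AXL ligand near LINC00452, -0.08 ± 0.09, SLC39A11, a zinc transporter gene near LINC00511, -0.27 ± 0.18, and TRAF5, a signalling adaptor gene near LINC00467, 0.25 ± 0.15. KCNJ12, nearest to LINC02693, had at most 1 count per library and was not tested. Around the 6 higher members the same window of 250 kb held 32 tested coding genes, of which 7 were higher and 1 was lower, and around the 10 lower members 35, of which 4 were higher and 9 lower. Of the 7, 4 lay near LINC02970, 2 near LINC00205 and 1 near LINC01588, and these counts too are to be read beside 11.5% higher and 11.4% lower among all coding genes. Near LINC03033, SNAPC1, a subunit gene of the small nuclear RNA activating complex, was lower (-1.17 ± 0.10) with SYT16 (-1.51 ± 0.36). In the same window HIF1A, the hypoxia transcription factor gene, was higher (0.64 ± 0.09). Near LINC02693, MAP2K3, a kinase gene of the p38 pathway, was lower (-0.67 ± 0.11) with NATD1 (-0.74 ± 0.18). Near LINC00973, the sialyltransferase gene ST3GAL6 was lower (-0.89 ± 0.14), and near LINC01293 the hexokinase gene HK2 was lower (-0.37 ± 0.09). Others went against their member: RASA3 (0.35 ± 0.09) near LINC00452 was higher, as were CAPNS1 (0.39 ± 0.08) and THAP8 (0.84 ± 0.24) near LINC00665. RBM28, near the higher member LINC03072, was lower (-0.44 ± 0.10). Going with their member, ZNF146 near LINC00665 was lower (-0.34 ± 0.11) and ARF6 near LINC01588 was higher (0.23 ± 0.08). The calls from RASA3 to ARF6 were each lost in at least 1 alternative fit. NATD1 and HK2 missed the threshold without EGFP positive library 1 (edgeR adjusted p = 0.0554 and 0.124) and without library 2 (0.109 and 0.115).

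A further 5 members have a coding gene that passed within 50 kb while they themselves did not, besides LINC00857 and LINC01002. LINC00342 (-0.52 ± 0.22) lies near ANKRD36C, LINC02009 (-0.40 ± 0.19) near the chemokine receptor-like gene CCRL2, LINC02980 (0.60 ± 0.34) near TRIM38, LINC00941 (0.14 ± 0.14) over CAPRIN2 and LINC01232 (0.76 ± 0.37) over TM9SF2. ANKRD36C and CCRL2 were lower, and TRIM38, CAPRIN2 and TM9SF2 were higher. All 5 coding calls were lost without EGFP positive library 1 and without library 2, and that of CCRL2 also without EGFP negative library 1 (edgeR adjusted p = 0.114). LINC01232 shares 11.04% of its exon bases with TM9SF2.

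The LINC names outside the member rule were sparser. 75 of them were tested, of which 9 were higher and 5 lower, but a name this sparse could pass the filter on low counts through 1 high group alone, so the share that passed supports nothing. LINC01291, which lies 1839 bases from LINC01293, had 29 and 35 counts in EGFP positive and 6 and 3 in EGFP negative libraries (log2 fold change -2.86 ± 0.48, edgeR adjusted p = 0.000816). Its counts in EGFP negative libraries were few, and it is given as a description. LINC02303 had 19 and 23 counts against 1 and 2, and LINC01711 had 2 and 3 against 34 and 20.

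**Figure D4:**
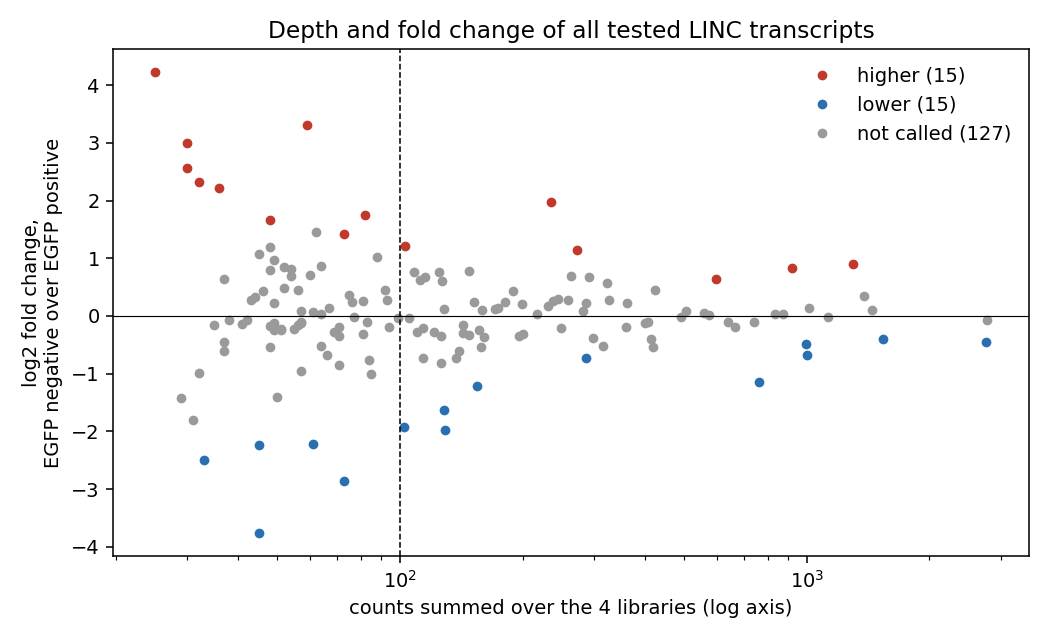
Counts summed over the 4 libraries (log x axis) and log2 fold change (EGFP negative over EGFP positive, y axis) of all 157 tested LINC transcripts, without error bars. The dashed line is the member threshold of 100 counts; colours mark 15 higher, 15 lower and 127 that did not pass. Fold changes spread widely at low counts and narrow towards high counts.

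Other non-coding classes were counted in the same fit. Of 313 tested antisense genes 11 were higher and 10 lower (6.71%), of 122 divergent transcripts 3 and 4 (5.74%), and of 1266 rows with an Ensembl identifier only 41 and 40 (6.4%). All genes tested gave 18.9%. Among 24 tested snoRNA host genes 0 were higher and 5 lower (20.8%): SNHG1, SNHG3, SNHG7, SNHG15 and SNHG17, each of which missed the threshold without 1 or both of the EGFP positive libraries. Among 26 tested microRNA host genes 4 were higher and 4 lower (30.8%). These classes differ from the members in depth, and the difference between their shares was not tested.

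Of a list of 26 LINC genes widely studied in cancer, 21 were in the tables under the listed names and 13 were tested. Listed genes that the tables hold under another name were not looked for. LINC00511, LINC00467 and LINC01234 were higher and LINC00665 and LINC01605 lower, or 38.5% of those tested, against 18.9% of all genes tested. LINC01234 is no member, with 5 and 13 counts against 26 and 38, and missed the threshold without EGFP positive library 1 (edgeR adjusted p = 0.181). Of 16 classic long non-coding RNAs 12 were tested, and 41.7% of these passed, to be read beside the same 18.9%. Both lists are short, and the difference of their shares from that of all genes was not tested. NEAT1, the scaffold of nuclear paraspeckles, was higher (0.63 ± 0.10). CYTOR (-0.53 ± 0.09), DANCR (-0.67 ± 0.10), UCA1 (-2.53 ± 0.53) and PVT1, a transcript of the MYC locus (-0.62 ± 0.15), were lower, of which PVT1 missed the threshold without EGFP positive library 2 (edgeR adjusted p = 0.159).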

How the data were processed

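The 2 EGFP positive and 2 EGFP negative MDA-MB-231 libraries were made with a stranded kit after polyA selection, per the labels' protocols. The authors deposited raw fragment counts per gene name, made with featureCounts 2.0.1 over exons of the GENCODE 46 basic annotation from paired reads with no strand option, per the file headers. The submitters' processing notes name Subread, GRCh37 and hg19, but the tables' coordinates are GRCh38: all 79 members matched to GENCODE 29 overlap their own place there. The aligner is not given in the sources used here.

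From these counts, genes were kept by filterByExpr, scaled by TMM (factors 0.9875 to 1.009) and tested with edgeR 4.0.16 (R 4.3.3), with group as the only term and adjustment over 16413 genes. The standard error is the absolute log2 fold change over the square root of F. CPM uses TMM-scaled totals. Chi-square per degree of freedom between replicates was 2.12 and 6.67, above sampling noise. Coding genes were taken from RefSeq, else GENCODE 29. Copies were sought with blastn 2.17.0. The test was checked on simulated data with a dispersion common to all genes and both groups, where 3 of 162 calls were false. Alternatives were RLE and upper quartile scaling, other filters, DESeq2 1.42.0, limma-voom (limma 3.58.1), the replicate block, each library left out and narrower member sets.

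Named were members that passed without overlap of groups (up to 12 per direction), the 6 highest per kb, their nearest coding genes, members within 50 kb of a coding gene that passed, those at the threshold, and up to 4 genes per list. LINC01615, LINC02535, LINC00261, LINC02211, the fifth snoRNA host, the LINC genes outside the rule and the window genes were chosen after their values were seen. Members and lists were chosen with earlier results of these data known.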

Additional observations from a re-analysis of the deposited data

How the results depend on the processing

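All 16 members that passed kept their direction in all 11 alternative fits, and 7 passed in every one: LINC02970, LINC00205, LINC00511, LINC01293, LINC02331, LINC00702 and LINC03033. Of 286 refitted values for 26 named members, 257 kept their call, 22 lost it, 6 gained one and 1 reversed: LINC01709, which did not pass and ranged from -0.0392 without EGFP positive library 2 to 0.2578 without library 1. DESeq2 called 4 members higher and 6 lower, with 13.2% of its genes called. The labels give both groups the replicate numbers 1 and 2. With the replicate block the fit called 10 members higher, 11 lower and 1 pair of a member and its nearest coding gene in opposite directions, LINC00665 and ZFP14. Deviations of same-numbered libraries correlated at 0.1142 over 2 pairs, and the labels name no batch or day behind the numbers, so whether they pair the libraries was not settled. Leaving out each library in turn gave 3 to 10 members higher, 6 to 12 lower, 4 to 11 nearest coding genes higher, 3 to 10 lower, 2 to 8 pairs in the same direction and 0 to 1 in opposite directions. The group left with 1 library is assumed there to vary like the other. Without an EGFP positive library, the spread was taken from the EGFP negative pair alone, and the reverse. The EGFP negative pair was the more spread, with a chi-square per degree of freedom of 6.67 against 2.12. The cause of the shifts between these fits was not tested. Narrower member sets hold fewer genes: of the 47 members with a summed count of 200 or more 5 were higher and 6 lower, and among the 38 that share no exon base 3 were higher and 5 lower. No alternative scaling or test moved the median of all genes by more than 0.015 on the log2 scale. With 2 libraries per group, the test often missed changes of 1.5-fold in simulated data over the members' count range. Detection at the members' median of 246.5 counts was not tested.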
